A study of Mus musculus with 3 samples.

Results

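Heat shock proteins are molecular chaperones, which bind unfolded or newly made proteins and help them to fold, to be transported or to be degraded. Their best known regulator is heat shock factor 1 (HSF1), which after heat, oxidants or other protein-damaging stress binds heat shock elements in the promoters of chaperone genes and raises their transcription. Fibroblasts make several of these proteins constantly, among them HSC70 and HSP90, while the inducible HSP70 proteins are usually scarce until the cell is stressed. The genes described here are 10 of this system, chosen by name, though with earlier results of these data known. They are Hspa1a, Hspa1b and Hspa8 of the HSP70 family, Hsph1 (HSP110), Hsp90aa1 (HSP90 alpha), the small heat shock proteins Hspb1 and Cryab, the co-chaperones Dnajb1 and Bag3, and Hsf1 itself.

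The cells were mouse embryonic fibroblasts (MEF), a primary culture made from mid-gestation C57BL/6 embryos that had been freed of head, legs and internal organs. The 3 conditions were MEF without n-butylidenephthalide (BP), a compound from Angelica sinensis, MEF with 10 µg/ml BP (BP10) and MEF with 40 µg/ml BP (BP40), all in the same medium with heat-inactivated serum at 37°C. The study describes the control as DMSO and the labels record no treatment for it, and the time in BP is not given in the sources used here. Cy3-labeled RNA of each condition was hybridized to 1 Agilent mouse array of 1 colour, 3 arrays in all. There was no replicate, so no test across cultures is given, and every ratio below compares 2 arrays. On the array, 13 of 55681 gene probes carried the name of a member. They stood for 9 of 35696 gene names, because Hspa1b had no probe of its own and the Hspa1a probe is annotated to both genes. Of the 9 genes, 6 had 1 probe, 2 had 2 probes and 1 had 3.

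A level is the log2 signal of a probe minus the 75th percentile of the gene spots of its array, and a ratio is the difference of 2 levels. All 13 probes were well above background on all 3 arrays, and none was saturated. A pair of errors of the array measurement stand beside the values. The scanner software's error model gave every member signal an error of 10%. Each member ratio therefore had the same error, 0.20 on the log2 scale, which is not a measured spread. Different probes of 1 gene differed with a median SD of 0.21 for BP10 and 0.14 for BP40 relative to the control. Between the doses this SD was 0.17. Neither holds any variation between cultures. The arrays lay on 1 slide, but the control array was scanned in another session and without the software's spatial detrending, so BP cannot be told apart from scan session in a ratio to the control. The BP40 and BP10 arrays were scanned together, and both ratios to the control share the control array. Fibroblast markers were well above background on all arrays for 10 of 10 genes, and their median log2 ratio to the control was -0.60 at BP10 (-0.35 with quantile normalization) and -0.64 at BP40 (-1.40 when scaled on the spike-in probes). In such a bulk sample, fewer cells of a type and less RNA per cell cannot be told apart.

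The 3 probes below lie in coding sequence. The first is annotated to both inducible HSP70 genes, and the others read Hspa8, whose probes disagreed. The most downstream Hspa8 probe, which had the lowest ratio for BP10 against control, is not printed. Each printed probe is 60 bases long and is written 5′ to 3′ on the strand of the transcript.

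Hspa1a and Hspa1b, A_55_P2068459: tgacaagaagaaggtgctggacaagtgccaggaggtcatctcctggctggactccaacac

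Hspa8, A_52_P12877: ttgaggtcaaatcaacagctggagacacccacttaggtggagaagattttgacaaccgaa

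Hspa8, A_55_P2069721: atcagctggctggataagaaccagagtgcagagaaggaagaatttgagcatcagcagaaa

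RefSeq promoter windows (GRCm38.p6) of 300 bases, from 250 before to 50 after the start of transcription, were given for 6 of the 10 genes. They were searched on both strands for the heat shock element as a pair of inverted units, GAANNTTC or TTCNNGAA, each of which is its own reverse complement. The 6 genes, chosen as heat shock genes, had 8 windows, and 6 of these, of 5 genes, held the pair. Of all 32851 windows 15.1% did. The Hsph1 windows overlap and hold the same pairs, so the count is not of independent windows. The windows of Dnajb1 did not hold these letters. Hspb1 had 2 such pairs, 117 and 97 bases before its start, and in Hspa1a and Hspa1b the pair began 104 bases before. In Hsph1, 1 pair began 33 bases before the start used for the stretch printed here, and the longer form of 3 alternating units, each pair as spelled out above and overlapping by 1 unit, lay after it. That form was found in 0.603% of all windows. The pair in Bag3 lay 43 bases after the start. The windows of Hspa1a and Hspa1b were identical at 296 of 300 bases. The stretches before the start that hold a pair are shown because these genes are the ones HSF1 is best known to act on, with the pair in capitals. A match of letters is a description and not a site of binding.

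Hspa1a, chr17:34972237-34972376, minus strand: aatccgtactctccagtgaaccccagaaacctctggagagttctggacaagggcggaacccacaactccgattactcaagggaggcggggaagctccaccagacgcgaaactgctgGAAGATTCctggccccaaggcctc

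Hspa1b, chr17:34959319-34959458, minus strand: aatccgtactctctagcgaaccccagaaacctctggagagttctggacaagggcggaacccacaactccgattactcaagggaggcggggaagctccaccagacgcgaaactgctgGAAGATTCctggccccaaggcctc

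Hspb1, chr5:135887779-135887848, plus strand: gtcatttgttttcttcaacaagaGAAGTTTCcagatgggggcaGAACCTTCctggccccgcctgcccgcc

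Hsph1, chr5:149636337-149636396, minus strand: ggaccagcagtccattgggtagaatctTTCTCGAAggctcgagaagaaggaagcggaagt

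The RNA for inducible HSP70, from Hspa1a and Hspa1b, differed little between the arrays. Its probe (chromosome 17 of mm9, 35107117 to 35107176) had a level of -0.43 in the control, -0.10 in BP10 and -0.17 in BP40. The control was lowest and the BP arrays lay close together. The log2 ratio to the control was 0.33 at BP10 and 0.26 at BP40, or 1.26-fold and 1.20-fold, both a little above the scanner error. With detrending applied on all arrays these ratios were 0.20 and 0.13, not above that error. Scaled on the bright spike-in probes they were 0.49 and -0.50. The ratio for BP40 against BP10 was -0.07, within the scanner error. The processed signals were 1307, 1336 and 1099. Because the probe is annotated to Hspa1a and Hspa1b alike, the 2 genes cannot be told apart here.

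Hspa8 encodes HSC70, the HSP70 protein of unstressed cells, and its 3 probes disagreed. The most upstream probe, A_52_P12877 (chromosome 9 of mm9, 40611142 to 40611201), had a level of 4.16 in the control, 5.34 in BP10 and 4.58 in BP40. BP10 was highest on it, with a log2 ratio of 1.17 or 2.26-fold against the control, and BP40 lay between, at 0.42 against the control and -0.75 against BP10. The middle probe, A_55_P2069721 (40612755 to 40613050, across an intron), had levels of 7.02, 6.87 and 6.89 in the same order of arrays. Its ratios to the control were -0.15 and -0.13, within the scanner error. The most downstream probe, A_55_P2080603 (40613223 to 40613282), which holds the polyadenylation signal AATAAA, had levels of 7.71, 6.92 and 7.38. On this probe the control was highest and BP10 lowest, with ratios of -0.79 and -0.34 against the control and 0.45 for BP40 against BP10. The first and the last probe thus ordered the 3 arrays in reverse.

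**Figure D1:**
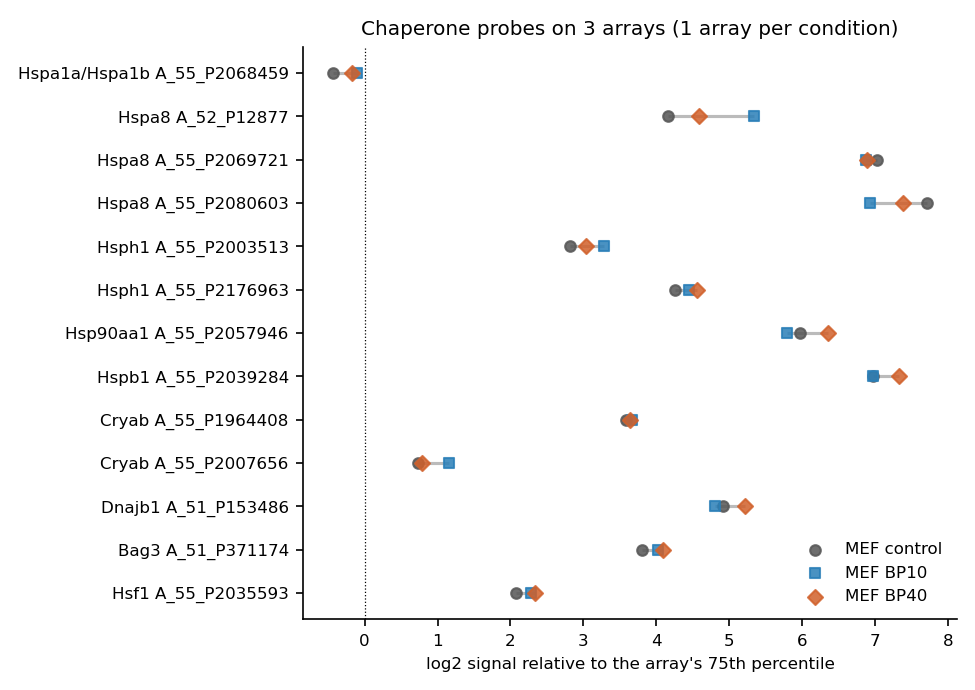
Level of each of the 13 chaperone probes (log2 signal relative to the 75th percentile of its array, horizontal axis) on the control (circles), BP10 (squares) and BP40 (diamonds) arrays, 1 array per condition, with a grey line from the lowest to the highest. The upstream Hspa8 probe is the one that moved past 2-fold, and the first and last Hspa8 probes show the 3 arrays in opposite orders. Levels of different probes are not comparable.

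The range over the 3 Hspa8 probes was 1.96 for BP10 against control, 0.76 for BP40 against control and 1.20 for BP40 against BP10, on the log2 scale. Over 231 genes of like brightness with 3 probes, Hspa8 included, the median range was 0.42, 0.32 and 0.36, and 1, 21 and 5 of these genes had a range at least as large as that of Hspa8. Hspa8 was therefore the gene with the largest range among them for BP10 against control. For BP10 against control, the ratio of the most upstream probe exceeded that of the most downstream probe by 1.96 in Hspa8, 0.27 in Hsph1 and 0.34 in Cryab. At BP40 it did so in Hspa8, by 0.76, and not in Hsph1 or Cryab, where the difference was -0.09 and -0.01. The difference for BP10 against control, looked at after these values were seen, was above 0 in 73.2% of 1326 genes of like brightness with probes at least 60 bases apart, with a median of 0.24. It had a median of 0.37 in the 314 genes whose probes were over 5000 bases apart. For BP40 against control the median over the 1326 genes was 0.09, and for BP40 against BP10 it was -0.17. The part of this array-wide difference in the Hspa8 values was not tested. The difference of 1.96 lay above the 95th percentile of the 1326 genes, which was 0.94, and 2 genes other than Hspa8 reached it. The annotation of the middle and the most downstream Hspa8 probe lists a further RefSeq transcript, and that of the upstream probe does not. Mouse Hspa8 also has many processed copies in the genome. What the further transcript and the copies add to each probe was not tested.

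**Figure D2:**
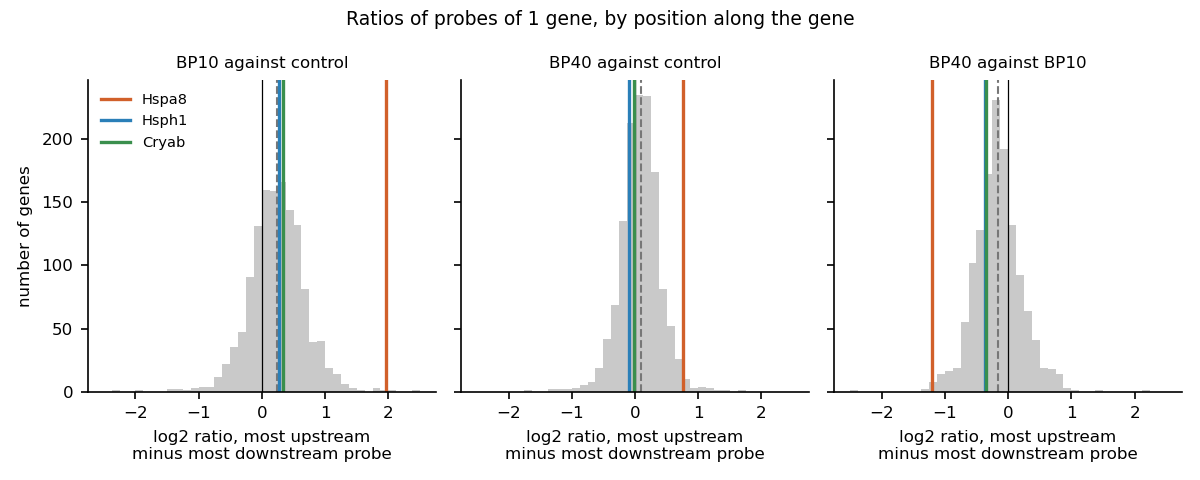
Difference in log2 ratio between the most upstream and the most downstream probe of a gene (horizontal axis, values beyond 2.5 drawn at the edge) for 1326 genes with 2 or more probes of like brightness (vertical axis, number of genes), in the 3 comparisons. The dashed line is the median (0.24, 0.09 and -0.17), and coloured lines are Hspa8, Hsph1 and Cryab. Hspa8 lies far from the median in each comparison, at 1.96, 0.76 and -1.20.

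Hsph1 encodes HSP110, which releases nucleotide from HSP70 proteins and holds unfolded proteins soluble. Its probe nearer the end of the transcript, A_55_P2176963 (chromosome 5 of mm9, 150419744 to 150419803), had levels of 4.26 in the control, 4.44 in BP10 and 4.56 in BP40. The upstream probe A_55_P2003513 (150420110 to 150420169) had 2.82, 3.28 and 3.03. The control was lowest on both, but BP40 was highest on the first and BP10 on the second. The ratios to the control were 0.18 and 0.45 at BP10 and 0.30 and 0.21 at BP40, and BP40 against BP10 gave 0.12 and -0.24, so the probes agreed on the sign against the control and not between the doses.

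Hsp90aa1, the inducible form of cytosolic HSP90, was highest in BP40. Its probe (chromosome 12 of mm9, 111929248 to 111929307) had a level of 5.97 in the control, 5.79 in BP10 and 6.36 in BP40. The log2 ratio was -0.18 for BP10 against control, within the scanner error, and 0.39 for BP40 against control. BP40 against BP10 gave 0.57, or 1.49-fold, the largest ratio above 0 among the member probes in that comparison.

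The small heat shock proteins hold unfolded proteins without using ATP. Hspb1, which encodes HSP27 (HSP25 in mice), had levels of 6.97 in the control, 6.97 in BP10 and 7.33 in BP40 on its probe (chromosome 5 of mm9, 136365366 to 136365425). The control and BP10 were level, at a ratio of -0.01, and BP40 stood above both, by 0.36 against the control and 0.37 against BP10. Cryab, which encodes alpha-B-crystallin, was nearly level on its brighter probe A_55_P1964408 (chromosome 9 of mm9, 50564566 to 50564625), with 3.58, 3.67 and 3.64. The upstream Cryab probe A_55_P2007656 (50561458 to 50561517) had 0.73, 1.16 and 0.79. BP10 was highest on that probe, with a ratio of 0.43 against the control. With detrending applied on all arrays this ratio was 0.15, within the scanner error. The ratios of both probes for BP40 against control were 0.06 and 0.05, within the scanner error, and with detrending applied to all arrays they were -0.17 and -0.23.

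Dnajb1 encodes HSP40, the J-domain partner that stimulates the ATPase of HSP70. Its probe (chromosome 8 of mm9, 86135660 to 86135719) had a level of 4.91 in the control, 4.80 in BP10 and 5.22 in BP40. As for Hsp90aa1, BP40 was highest and BP10 lowest, with ratios of -0.11 for BP10 and 0.31 for BP40 against control and 0.42 for BP40 against BP10. Bag3 encodes a nucleotide exchange factor of HSP70 that acts with small heat shock proteins in selective autophagy. On its probe (chromosome 7 of mm9, 135690281 to 135690340) the levels were 3.80, 4.02 and 4.09. Hsf1, whose activity is set mainly by changes of the protein and less by the amount of its RNA, had 2.07, 2.29 and 2.34 (chromosome 15 of mm9, 76331320 to 76331379). The control was lowest for both genes and the BP arrays differed by less than the scanner error. The ratios to the control were 0.22 and 0.29 for Bag3 and 0.22 and 0.27 for Hsf1, at BP10 and BP40. With detrending applied on all arrays they were 0.08 and 0.14 for Bag3, within the scanner error, and 0.33 and 0.38 for Hsf1.

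Calls at 2-fold were rare among the chaperone probes, as they were among probes of like brightness. At 2-fold, 1 of 13 probes was called for BP10 against control, the upstream Hspa8 probe, where 15.6% of all 45462 probes tested were called and 2.47% of the 13493 probes of like brightness, which held only 333 of the 7101 calls. For BP40 against control 0 of 13 probes were called (15.7% of all probes and 1.76% of those of like brightness), and for BP40 against BP10 0 of 13 (5.7% and 1.81%). The median ratio of the 13 probes was 0.18 for BP10 against control, 0.27 for BP40 against control and 0.05 for BP40 against BP10. Over the probes of like brightness it was -0.09, 0.05 and 0.13. At 1.5-fold the counts were 2, 0 and 1 of 13, all on Hspa8, where 12%, 10.1% and 11.2% of the probes of like brightness were called. With 1 probe per gene, the median over the 9 genes was 0.09, 0.29 and 0.12, and over all genes on the array it was -0.18, -0.11 and 0.06.

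Against the control, BP40 gave the more even pattern. Of the 13 probes, 11 had a ratio above 0 at BP40, both exceptions being Hspa8 probes, and 0 of 13 did when the arrays were scaled on the spike-in probes. The 10 probes of the other genes lay between 0.05 and 0.39. Among probes of like brightness 55.8% were above 0, and the middle 90% ran from -0.58 to 0.59, a range that held all 13 chaperone probes. At BP10 8 of 13 probes were above 0, where 40.0% of the probes of like brightness were. The first and the last Hspa8 probe lay above and below the middle 90%, which ran from -0.69 to 0.57. For BP40 against BP10 the middle 90% ran from -0.51 to 0.67 and only the upstream Hspa8 probe lay outside it. The 7 bright E1A spike-in probes, which read control RNA of the kind added at labeling, had a median ratio to the control of 0.79 on the BP40 array and of -0.0018 on BP10. Scaling each array on the median level of these probes moved the ratios to the control by -0.76 at BP40 and by 0.15 at BP10, where 11 of 13 chaperone probes were then above 0. Scaling on their median ratio, chosen after seeing the data, moved them by -0.79 and 0.0018 and left 0 of 13 above 0 at BP40 and 8 of 13 at BP10. Relative to the median of the probes of like brightness, which a scaling of whole arrays cannot change, 11 of 13 chaperone probes were higher than the control at BP40 and 9 of 13 at BP10. With detrending applied on all arrays these counts were 8 and 7 of 13.

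**Figure D3:**
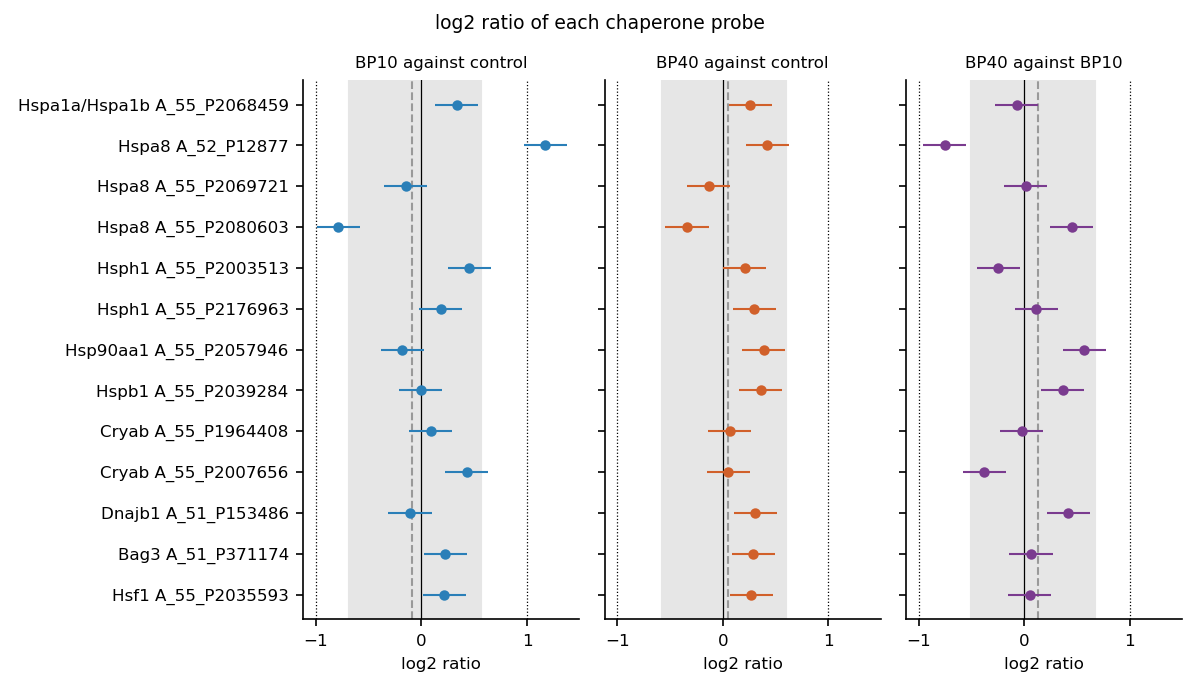
log2 ratio of each chaperone probe (points, with the scanner error of 0.20 as bars) in the 3 comparisons. The grey band is the middle 90% of 13493 probes of like brightness, the dashed line their median, and dotted lines mark 2-fold. For BP40 against control 11 of 13 probes lie above 0 (0 of 13 when scaled on the spike-in probes) and all lie in the band. The upstream Hspa8 probe is the one point past 2-fold, at 1.17 for BP10 against control.

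On the BP10 array the brightest probes were lower in general. For probes with a mean level of 7 to 8 over the arrays, the median ratio to the control was -0.24 at BP10 and 0.09 at BP40, and for those of 3 to 4 it was -0.11 and 0.06. Of the brighter chaperone genes, Hsp90aa1, Hspb1 and Dnajb1 had ratios of -0.18, -0.01 and -0.11 at BP10. With the median at each brightness subtracted, these were -0.02, 0.23 and 0.05, and their ratios for BP40 against BP10 were 0.36, 0.05 and 0.20 in place of 0.57, 0.37 and 0.42.

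**Figure D4:**
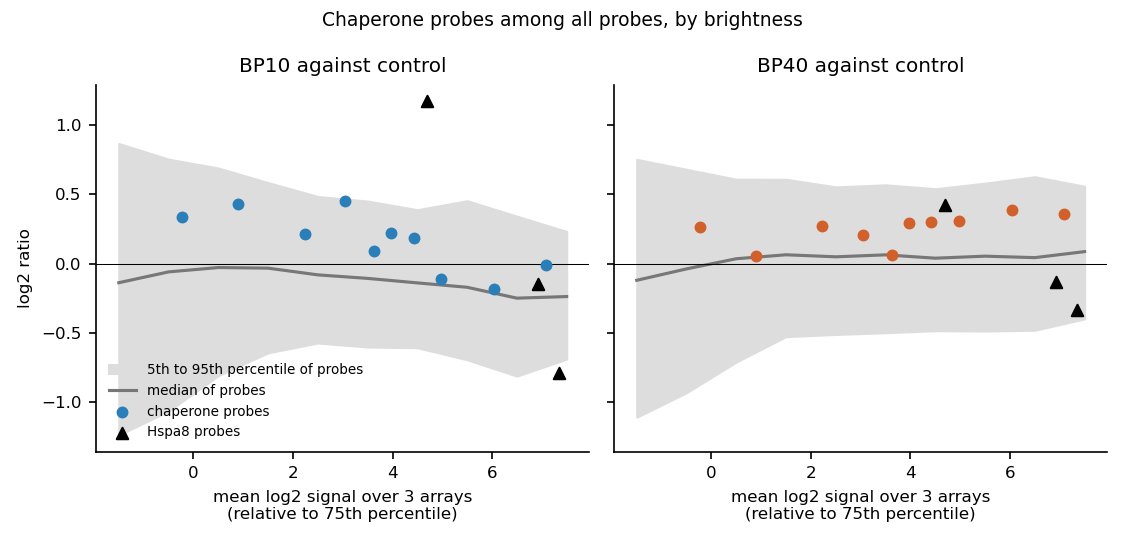
log2 ratio against the mean level over the 3 arrays for the 13 chaperone probes (Hspa8 as black triangles), at BP10 (left) and BP40 (right) against control. The grey band is the 5th to 95th percentile and the line the median of all probes in steps of 1 log2 unit of brightness. The median at BP10 falls to -0.24 for probes of level 7 to 8, and the upstream Hspa8 probe, at 1.17, lies above the band.

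In a wider list of 126 chaperone genes in 10 groups, 119 genes were well above background on all arrays. Calls were rarer among probes as bright as the members than among all probes, and no share at like brightness was computed for this list. For BP10 against control 2 genes were called higher and 4 lower (3.21% and 12.2% of all genes tested), for BP40 against control 0 and 3 (3.14% and 12.2%), and for BP40 against BP10 1 and 0 (2.45% and 2.66%). The genes called higher at BP10 were Hspb9, a small heat shock protein of testis, with a ratio of 1.03 (0.80 at BP40), and Ier5, an immediate early gene that HSF1 induces, with 1.21 (0.43 at BP40), although a second Ier5 probe gave -0.14. The genes called lower were dim, with levels of -2.38 or less in the control. Unc45b, a myosin chaperone of muscle, had -1.43 at BP10 and -1.27 at BP40, Hspb7 of heart and muscle had -1.13 and -0.91, and Cct6b, a testis form of a chaperonin subunit, had -1.24 and -0.85. Dnajb8 was at least 2.12-fold lower at BP10, and Dnajc22 at least 2.27-fold lower at BP40, since neither was well above background on that BP array. Hspa1l, a testis HSP70, had -0.92 at BP10 and -1.21 at BP40. Hsbp1l1, related to an inhibitor of HSF1, was the gene called for BP40 against BP10, at 1.13. Skeletal muscle markers were well above background on all arrays for 5 of 10 genes, and the median measured ratio of the 10 genes to the control was -0.46 at either dose (-0.05 and 0.00 with quantile normalization). Their part in the Unc45b and Hspb7 values was not tested.

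The groups of the wider list differed in their medians, which at BP40 all fell below 0 when the arrays were scaled on the spike-in probes. Of all probes tested, 31.3% had a ratio to the control above 0 at BP10 and 36.8% at BP40. The median over all genes was -0.18 and -0.11. The HSP70 and HSP110 relatives not listed with an organelle had a median ratio to the control of -0.37 at BP10 and of -0.08 at BP40. At BP10 0 of 8 genes were above 0 (median -0.30 and 1 of 8 with quantile normalization). The mitochondrial chaperones had -0.26 at BP10 (2 of 11 above 0) and 0.20 at BP40 (7 of 11 above 0, and a median of -0.56 when scaled on the spike-in probes). Within that group Hspd1 (HSP60) had -0.45 and -0.13, and its partner Hspe1 (HSP10) had -0.56 and 0.07, with its 2 other probes at -0.71 and -0.72 for BP10. Hspe1 was 0.63 higher on BP40 than on BP10. Probes with a mean level of 6 to 7, as of these 2 genes, had a median of 0.32 in that comparison and of -0.25 for BP10 against control. The median of the mitochondrial group for BP40 against BP10 was 0.32, and 0.12 with the median at each brightness subtracted. The chaperones of the endoplasmic reticulum had medians of -0.12 and -0.22, with 7 and 4 of 15 genes above 0, although at BP10 the median was 0.14 with quantile normalization. Hspa5 (BiP), the main HSP70 of that compartment, had -0.13 and -0.14, and the collagen chaperone Serpinh1 had -0.24 and -0.32, beside the collagen genes Col1a1 at -0.74 and -0.85 and Col3a1 at -0.76 and -1.23, while Col1a2 was at -0.31 and 0.09. HSP90 and its co-chaperones had medians of 0.07 and 0.16, with the constitutive Hsp90ab1 at -0.09 and 0.16 and the HSP70-HSP90 adaptor Stip1 at 0.21 and 0.11. The other heat-inducible genes had medians of 0.28 (5 of 7 above 0) and 0.35 (6 of 7), but the first was 0.06 with the normexp background correction and 0.08 with detrending undone on all arrays. Hsf2, a second heat shock factor, had 0.24 and 0.62, and Hspb8, a small heat shock protein that works with BAG3, had 0.34 and 0.31.

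**Figure D5:**
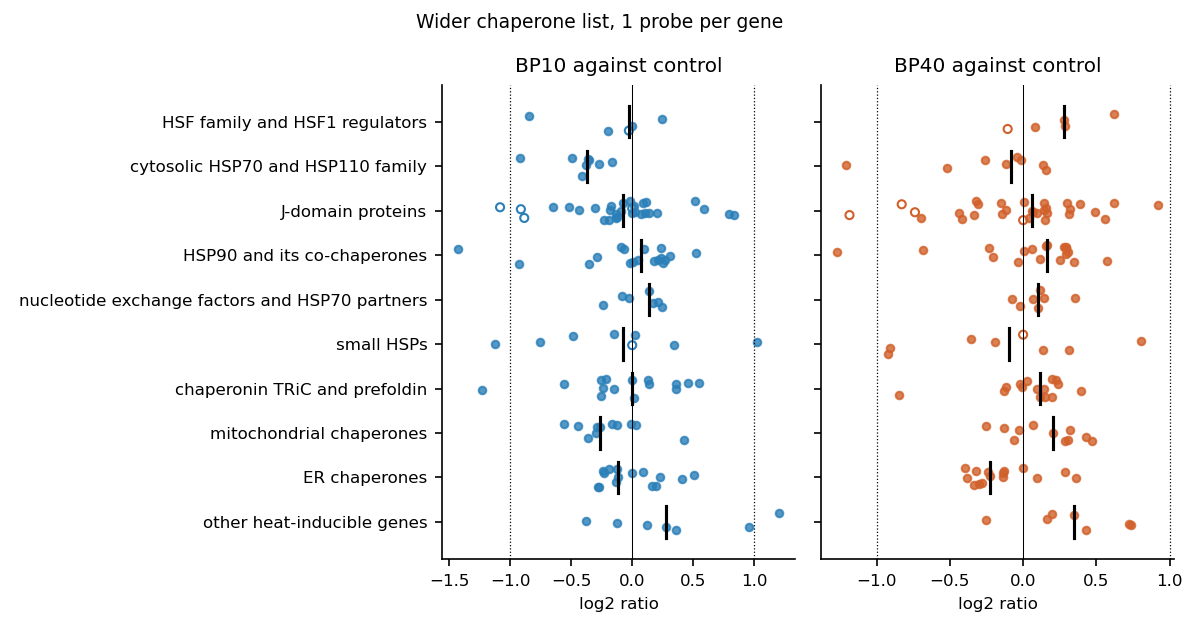
log2 ratio of 126 chaperone genes in 10 groups (1 probe per gene, points spread vertically for legibility) at BP10 (left) and BP40 (right) against control. Black bars are group medians, dotted lines mark 2-fold, and open circles are genes not well above background on all 3 arrays, some drawn at a bound. Dnajc6 had no value for the control and is not drawn. Mitochondrial chaperones have a median of -0.26 at BP10 and 0.20 at BP40 (-0.56 when scaled on the spike-in probes), and most genes of every group lie within 2-fold.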

How the data were processed

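For every array the authors deposited what the scanner software (Feature Extraction 10.5.1.1) wrote, a background-corrected intensity for each spot with no scaling between arrays. The deposited factor of the spatial detrending, a ratio, had been applied on the BP arrays and not on the control array. At member spots of the control array it ran from 0.82 to 1.12. The deposited series table held the same intensity values. The share of gene spots well above background was 81.7% for the control, 68.3% for BP10 and 69.1% for BP40. The number of arrays limits the precision.

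From these values, log2 intensity minus the 75th percentile of gene spots was taken and spots of 1 probe were averaged. Of the gene probes, 26425 were named by a RefSeq symbol and the rest by the file. Each gene was represented by its probe that passed background on most arrays, and by the brightest of these. A call needed 2-fold with the probe well above background on 1 of the 2 arrays. Where only 1 array passed, the ratio is a bound. Like brightness means a mean level within the range of the member probes and a signal above background on all arrays. Members, lists and named genes (all members, 8 further genes, and those called in the wider list) were chosen with earlier results of these data known. Python 3.11.15, pandas 2.3.3 and limma 3.58.1 were used, and calling was tested on simulated data. The genes most like inducible HSP70 were sought with the Hspa1a probe, since Hspa1b had none. No protein sequence was used here. No paired analysis was possible because there was 1 array for each condition.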

Additional observations from a re-analysis of the deposited data

Results flagged for a closer look

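Hsp90aa1, Hspb1 and Dnajb1 had ratios of opposite sign at the 2 doses, lower than the control at BP10 and higher at BP40. There was 1 array for each dose, so this difference was not tested. The ratio of Hspb1 at BP10 was -0.0067, level with the control. For BP40 against BP10 the log2 ratio was 0.57 for Hsp90aa1, 0.37 for Hspb1 and 0.42 for Dnajb1. Their ratios at BP10 were all within the scanner error of 0.20. With detrending applied on all arrays, however, Dnajb1 was at -0.39 at BP10, beyond that error, and at 0.03 at BP40. With quantile normalization the differences were 0.31, 0.06 and 0.23, and Hspb1 and Dnajb1 were then above the control at BP10, at 0.25 and 0.02. Scaled on the median level of the spike-in probes, the directions turned, with ratios to the control at BP40 of -0.37, -0.40 and -0.45 and differences between the doses of -0.35, -0.55 and -0.50, and Hspb1 and Dnajb1 were at 0.15 and 0.05 at BP10. Scaled on the median spike-in ratio, all were below the control at either dose.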

How the results depend on the processing

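Of 366 values recomputed under another setting, 48 could not change with it (the series table, equal to the scanner values, and detrending between the BP arrays). Of the other 318, 237 moved by less than the spread between probes of 1 gene, or by less than 1.5 times for a count, and 81 moved further, 48 of them under the spike-in scalings. The 1 member ratio called at 2-fold, on the upstream Hspa8 probe for BP10 against control, kept its sign. Smaller ratios did change sign, and at BP40 11 of 13 probes were above 0 but 0 of 13 under either spike-in scaling. The number of member probes called for BP10 against control was 2 at 1.5-fold and 0 at 3-fold, and for BP40 against BP10 it was 1 at 1.5-fold. Scaled on the bright spike-in probes, the median over the chaperone genes was -0.47 for BP40 against control and -0.80 for BP40 against BP10, with 1 and 3 probes called. Scaled on their median ratio, added after seeing the data, these were -0.50 and -0.68, again with 1 and 3 probes called. With detrending applied on all arrays, an alternative chosen after seeing the data, the median for BP40 against control was 0.14, Dnajb1 fell to 0.03, and the numbers of probes above 0 against the control were 7 at BP10 and 9 at BP40. With the median at each brightness subtracted, the median for BP40 against BP10 was -0.051. The upstream Hspa8 probe stayed past 2-fold for BP10 against control under all of the normalizations, between 1.14 and 1.34. The cause of these shifts was not tested.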

Other observations

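The 5 genes outside the list whose ratios lay nearest to those of inducible HSP70, by the Euclidean distance between the 2 log2 ratios to the control, included Gm5492 (0.34 and 0.26) and Supv3l1, a mitochondrial RNA helicase (0.34 and 0.25). The measure rests on 3 arrays, and 382 of 25026 genes lay within 0.1 of the same point, so the pattern is common.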
